A study of Mus musculus with 28 samples.

Results

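The 43 mRNAs described here encode proteins of DNA replication and the S phase of the cell cycle. They were listed by gene symbol, with no threshold on a measured value, and all 43 were found among the 30210 features of the tables. RNA that coprecipitated with the kinase PKR was counted in mouse embryonic fibroblasts (MEFs) in 3 separately sequenced datasets, called A, B and C. The cells had been reconstituted with wild-type PKR (WT) or with a mutant whose double-stranded RNA-binding motifs are each altered (RM, the dsRBD mutant of the labels), and they were mock-treated or given 0.1 mM palmitic acid, a saturated fatty acid. This made 4 groups: WT mock, WT palmitate, RM mock and RM palmitate. Datasets A and B held 3 biological replicates in each group and dataset C held 1 library in each. The labels do not say how many cell lines or clones carried each PKR, or whether a group's replicates came from separate cultures, so the p-values measure the spread between these libraries. Columns of dataset B are marked 2hr, which the labels do not explain. No input RNA and no control precipitate are among the samples, so a difference in RNA abundance in the cells, in recovery with PKR and in background RNA cannot be told apart.

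Replication starts at origins that the MCM helicase marks with the help of the loading factors Cdc6 and Cdt1. At S phase the GINS complex joins the helicase, DNA polymerase alpha with its primase lays down primers, and the clamp Pcna, put in place by the clamp loader RFC, holds the polymerases delta and epsilon on DNA. RPA covers single-stranded DNA, Fen1 and Lig1 join the Okazaki fragments, and ribonucleotide reductase (Rrm1 and Rrm2) and thymidylate synthase (Tyms) supply nucleotides. Many of these genes are transcribed in a wave at the G1/S transition under E2F transcription factors, so that their mRNAs are abundant in proliferating fibroblasts and low in resting ones. PKR (gene Eif2ak2) is a kinase known for its activation by double-stranded RNA.

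The DNA before the start of these genes is shown as background, because many of them are known to be transcribed under E2F. RefSeq sequence of the 250 bases upstream of the start (build GRCm38.p6, which is not the build of the count tables) was at hand for 34 of the 43 genes. The E2F letters TTTCCCGC, TTTCGCGC, TTTGCCGC or TTTGGCGC on either strand were in 8 of the 34 windows (23.5%), those of Cdc6, Gins3, Mcm5, Mcm6, Mcm7, Pola1, Rfc3 and Uhrf1, and in 583 of 27025 windows of all genes (2.16%). CCAAT on either strand was in 20 of the 34 (58.8%) and in 37.5% of all windows. Of the 4 windows printed here, 5′ to 3′ on the strand of the gene with motif letters in capitals, Mcm6 (chr1:128359706-128359955, minus strand) held 3 E2F matches whose first bases lay 110, 106 and 47 bases before the start, the first 2 of which overlap, and 2 matches to CCAAT at 57 and 14 bases. Cdc6 (chr11:98907901-98908150, plus strand) held 1 E2F match at 138 bases. Pcna (chr2:132253181-132253430, minus strand) and Rrm2 (chr12:24708004-24708253, plus strand) each held 1 match to CCAAT, at 87 and 50 bases, and no E2F match.
Mcm6: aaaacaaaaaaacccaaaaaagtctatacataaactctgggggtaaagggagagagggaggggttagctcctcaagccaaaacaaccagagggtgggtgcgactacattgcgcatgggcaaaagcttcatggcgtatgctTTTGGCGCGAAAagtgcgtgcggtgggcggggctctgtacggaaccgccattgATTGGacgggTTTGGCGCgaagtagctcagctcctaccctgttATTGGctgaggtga
Cdc6: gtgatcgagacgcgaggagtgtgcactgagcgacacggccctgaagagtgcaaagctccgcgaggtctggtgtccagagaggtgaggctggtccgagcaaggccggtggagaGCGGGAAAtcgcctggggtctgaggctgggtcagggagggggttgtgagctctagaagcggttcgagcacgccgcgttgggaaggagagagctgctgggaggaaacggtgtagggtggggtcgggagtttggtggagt
Pcna: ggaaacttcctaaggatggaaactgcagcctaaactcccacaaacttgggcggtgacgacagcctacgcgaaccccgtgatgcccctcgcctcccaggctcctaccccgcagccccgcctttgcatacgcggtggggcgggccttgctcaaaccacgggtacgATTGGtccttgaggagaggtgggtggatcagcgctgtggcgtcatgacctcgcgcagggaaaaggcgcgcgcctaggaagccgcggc
Rrm2: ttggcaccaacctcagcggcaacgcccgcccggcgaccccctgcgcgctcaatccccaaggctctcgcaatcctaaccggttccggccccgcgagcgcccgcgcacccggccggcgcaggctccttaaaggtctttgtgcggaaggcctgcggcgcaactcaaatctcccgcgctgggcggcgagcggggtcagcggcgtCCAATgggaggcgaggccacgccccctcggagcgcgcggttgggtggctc
A match is a stretch of letters and was not tested as a binding site. Of the 8 genes with E2F letters, Cdc6 alone passed the palmitate test given below with WT PKR in dataset B. With RM PKR Mcm6 alone did. Whether the motifs bear on the palmitate effects was not tested.

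The 43 mRNAs were a small share of what was precipitated with PKR, and that share differed between the datasets. They took 0.0302% to 0.0689% of all counts in dataset A (median 0.0409%), 0.109% to 0.326% in dataset B (median 0.281%) and 0.0176% to 0.0893% in dataset C. Total counts per library ran from 254762 to 8036622 in A, from 2204502 to 7122087 in B and from 7462653 to 11658726 in C, and the members' own counts from 92 to 2720, from 2934 to 23179 and from 1363 to 9032. Dataset B is thus the deeper view of these mRNAs. The shallowest library, RM palmitate replicate 2 of dataset A, had no count for 18 of the 43 mRNAs, and at its depth the limit that a count of 0 allows (3 counts) is 11.8 CPM (counts per 1000000 counts of the library). In dataset B, RM palmitate replicates 2 and 3 stood apart, with 7.69% and 10.96% of counts from mitochondrially encoded RNA against 4.44% in replicate 1, 1.33% to 3.36% in RM mock and 0.882% to 1.5% in all 6 WT libraries. Levels are given below as CPM after TMM scaling of the totals, which was done within each dataset, so that levels in A and B stand on separate scales. Fibroblast markers, here in CPM without TMM scaling, summed to between 7703 and 26078 CPM in the libraries of A and B, and all 12 had counts in both. On the same scale, the summed markers of macrophages and lymphocytes reached at most 8.90 CPM, those of epithelium 14.9 and those of endothelium 8.62, with Adgre1 and Cd3e at 0 in A and B and Krt5 at 0 in A.

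Per kilobase of exon, the most abundant of the mRNAs in dataset B was Rrm1, the large subunit of ribonucleotide reductase, at 64.4 ± 11.98 CPM per kb (SD over 12 libraries), followed by Pcna at 55.0 ± 15.4, Mcm4 at 47.8 ± 9.85 and Mcm3 at 44.99 ± 6.38. Neighbours among these 4 differed by less than their SD. The lowest were Gins3 at 1.44 ± 0.517 and the uracil glycosylase Ung at 0.704 ± 0.223 CPM per kb. In dataset A the order was led by Rpa3 at 20.1 ± 50.5 CPM per kb, which rested on a single library. The shallow RM palmitate replicate 2 had 35 counts of Rpa3, or 121 CPM, out of only 92 counts for all members, while the other 11 libraries of A lay between 1.72 and 6.87 CPM. Next in A came Rpa1 at 17.5 ± 15.4, Rrm1 at 11.5 ± 3.21 and Pcna at 9.37 ± 1.52 CPM per kb.

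With WT PKR, 11 of the S-phase mRNAs were lower after palmitate in dataset B. In edgeR's quasi-likelihood test over all 12466 features with Benjamini-Hochberg adjustment, 11 of the 43 fell and none rose, where 6.12% of all features fell and 9.43% rose. The log2 fold change (palmitate over mock) was below 0 for 39 of the 43, with a median of -0.34 against -0.05 over all features. The libraries of the 2 groups did not overlap for 20 of the 43, all lower with palmitate, where 19.1% of all features were lower without overlap. The summed level of the members was 2889 ± 57.7 CPM (SD, n = 3) in WT mock and 2418 ± 147 in WT palmitate. RNA precipitated with PKR from whole cultures was counted. Fewer cells in S phase, less of these mRNAs per cell, less recovery with PKR and a change in background RNA cannot be told apart. Without replicate 3 of WT palmitate 2 of the 43 were called, and 6 without replicate 1 or 2 of WT palmitate or replicate 2 of WT mock. With scaling by total counts 5 were called. The calls over all features in these settings are not given here. These counts therefore do not show whether the members lost more calls than other features did.

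**Figure D1:**
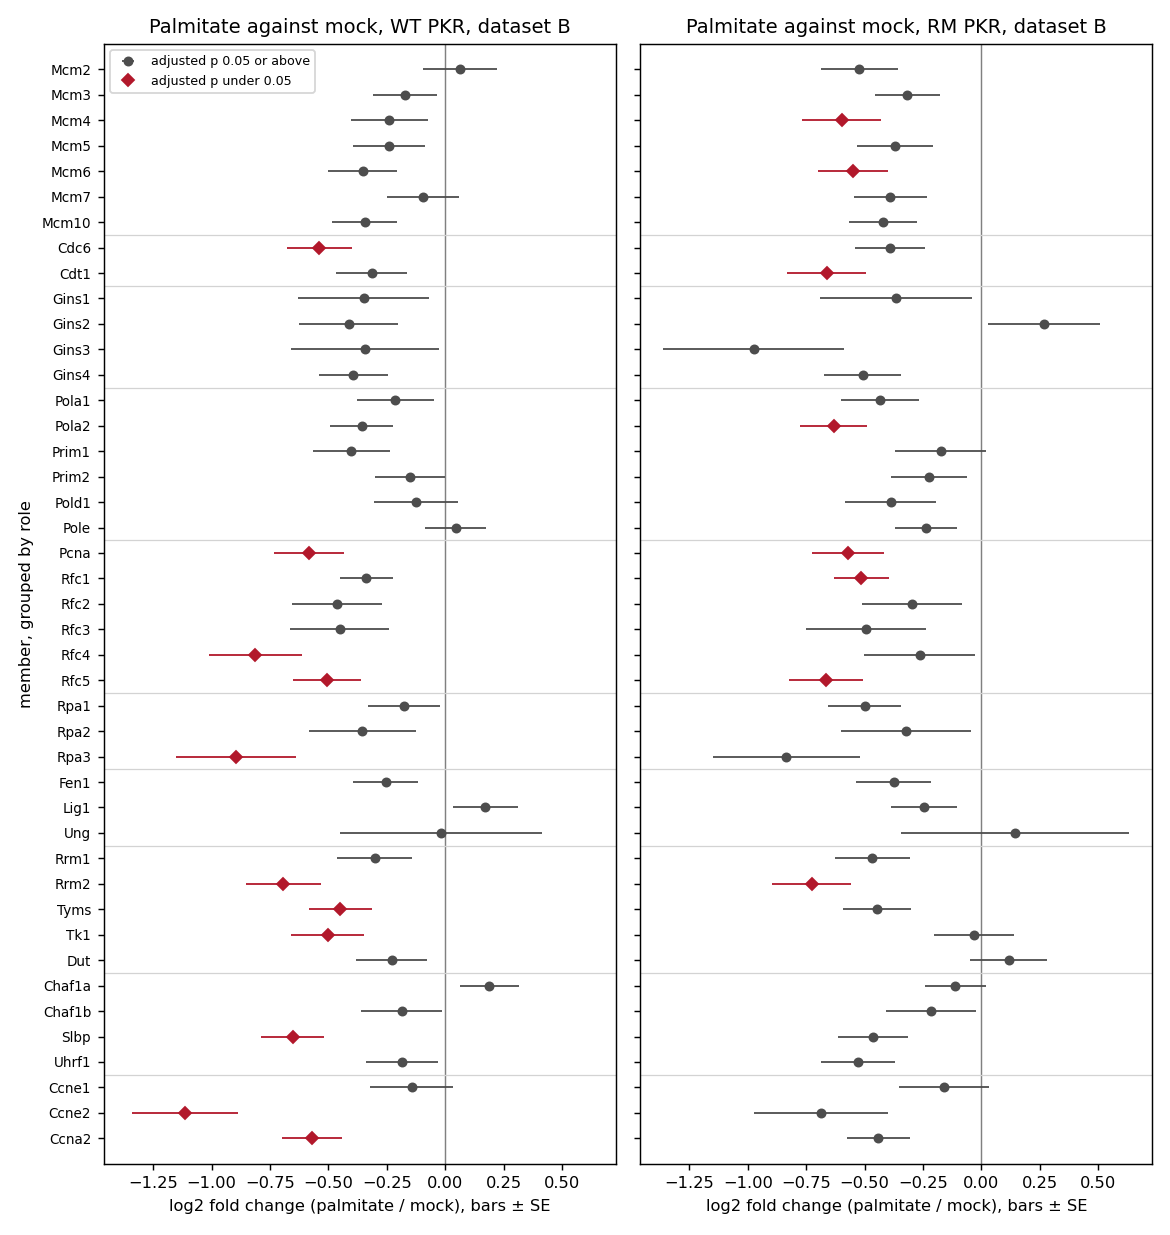
Log2 fold change (palmitate over mock, horizontal axis, bars ± SE of the fit) of each of the 43 mRNAs in dataset B, with WT PKR at the left and RM PKR at the right, in rows grouped by role. Red diamonds are adjusted p under 0.05. Points lie left of 0 for 39 of 43 mRNAs with WT and for 40 of 43 with RM, and the diamonds with WT sit mostly among the clamp loader, nucleotide supply and cyclin rows.

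By role, 3 of 6 mRNAs of the clamp and its loader, 3 of 5 of nucleotide supply and 2 of 3 cyclins fell with WT PKR. The 7 members listed under the helicase, its subunits Mcm2 to Mcm7 and the separate factor Mcm10, had log2 fold changes of -0.35 to 0.06 with none past the threshold. Whether roles differ from each other was not tested. Of the 2 licensing factors, Cdc6, which loads the helicase at origins, fell by 0.54 on the log2 scale (SE 0.138, adjusted p = 0.0149), while Cdt1 was at -0.31. None of the 4 GINS subunits passed, at -0.41 to -0.34, nor did any of the 6 polymerase and primase subunits, at -0.40 to 0.04. Of the 3 RPA subunits, which coat single-stranded DNA, Rpa3 fell by 0.90 (SE 0.258, adjusted p = 0.0270) on 14 to 95 counts per library.

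Pcna, the sliding clamp (mm9 chromosome 2, positions 132074898 to 132079050, minus strand), had 131, 108 and 103 CPM in the WT mock libraries of dataset B and 74.5, 82.8 and 71.2 with palmitate, so that the groups did not overlap. It fell 1.5-fold (log2 -0.58, SE 0.149, adjusted p = 0.0145). Its loader RFC has 5 subunits, all 5 of which were below 0 in log2 fold change. Rfc4 had 12.1, 12.6 and 11.2 CPM in WT mock and 7.68, 7.55 and 5.35 with palmitate. It fell 1.76-fold (log2 -0.81, SE 0.199, adjusted p = 0.0118). Rfc5 went from 38.8, 32.4 and 34.1 CPM to 24.5, 22.7 and 26.9, and fell 1.42-fold (log2 -0.51, SE 0.145, adjusted p = 0.0268). The large subunit Rfc1 had 120.0, 130.2 and 113 CPM against 103, 92.7 and 91.7, with no overlap but an adjusted p of 0.0558. Counts of Rfc5 and Rfc4 share their position with Wsb2 and Eif4a2 on the other strand, and the use of strand in counting datasets A and B is not stated. In dataset C, counted per strand, 18.6% of the counts at Rfc5 were antisense to it.

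Among the enzymes of nucleotide supply, Rrm2, the S-phase subunit of ribonucleotide reductase (mm9 chromosome 12, 25393106 to 25399011, plus strand), had 90.5, 74.7 and 71.7 CPM in WT mock and 51.3, 50.01 and 45.3 with palmitate. The groups lay clearly apart, and Rrm2 fell 1.62-fold (log2 -0.69, SE 0.161, adjusted p = 0.00876). Its partner Rrm1 was at -0.30 (adjusted p = 0.208). Tyms, which makes thymidylate (mm9 chromosome 5, 30385367 to 30400157, minus strand), had 33.7, 26.3 and 26.8 CPM in mock and 19.0, 21.9 and 22.9 with palmitate, and fell 1.36-fold (log2 -0.45, SE 0.133, adjusted p = 0.0321). Thymidine kinase Tk1 fell by 0.50 (SE 0.156, adjusted p = 0.0387), and Dut, which removes dUTP, was at -0.23. Tk1 and Tyms overlap Afmid and Gm17448 on the other strand. In dataset C 6.0% and 0.398% of the counts at their positions were antisense.

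The largest fall was that of Ccne2, cyclin E2, which drives entry into S phase (mm9 chromosome 4, 11118501 to 11131926, plus strand). It had 13.5, 11.6 and 10.5 CPM in WT mock and 6.40, 3.65 and 6.01 with palmitate, and fell 2.16-fold (log2 -1.11, SE 0.226, adjusted p = 0.00414). The counts at Ccne2 are not certain to be its own, since it overlaps Ints8 on the other strand and 59.8% of the counts at its position in dataset C were antisense. Its relative Ccne1, cyclin E1, had 13.2, 13.2 and 14.5 CPM against 10.4, 11.98 and 14.7, groups that overlap, with a log2 fold change of -0.14 (95% interval -0.52 to 0.23). Ccna2, cyclin A2 (mm9 chromosome 3, 36463788 to 36471072, minus strand), had 100.3, 113 and 106 CPM in mock against 81.3, 71.1 and 62.2 with palmitate, and fell 1.49-fold (log2 -0.57, SE 0.129, adjusted p = 0.00743). Ccna2 overlaps Exosc9 on the other strand, and 6.79% of the counts at its position in dataset C were antisense. Of the chromatin factors, Slbp, which binds the stem-loop of histone mRNAs (mm9 chromosome 5, 33977601 to 33995223, minus strand), had 44.6, 53.6 and 46.3 CPM against 31.5, 28.7 and 31.6. It fell 1.57-fold (log2 -0.65, SE 0.136, adjusted p = 0.00472). The calls of Ccne2 and Slbp passed in 12 of 12 alternative settings, those of Ccna2, Rrm2 and Rfc4 in 10, Cdc6 in 9, Pcna in 8, Rfc5 and Rpa3 in 7, Tk1 in 5 and Tyms in 3. Uhrf1 and both subunits of the assembly factor CAF-1, Chaf1a and Chaf1b, were at -0.18, 0.19 and -0.19 with none past the threshold.

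**Figure D2:**
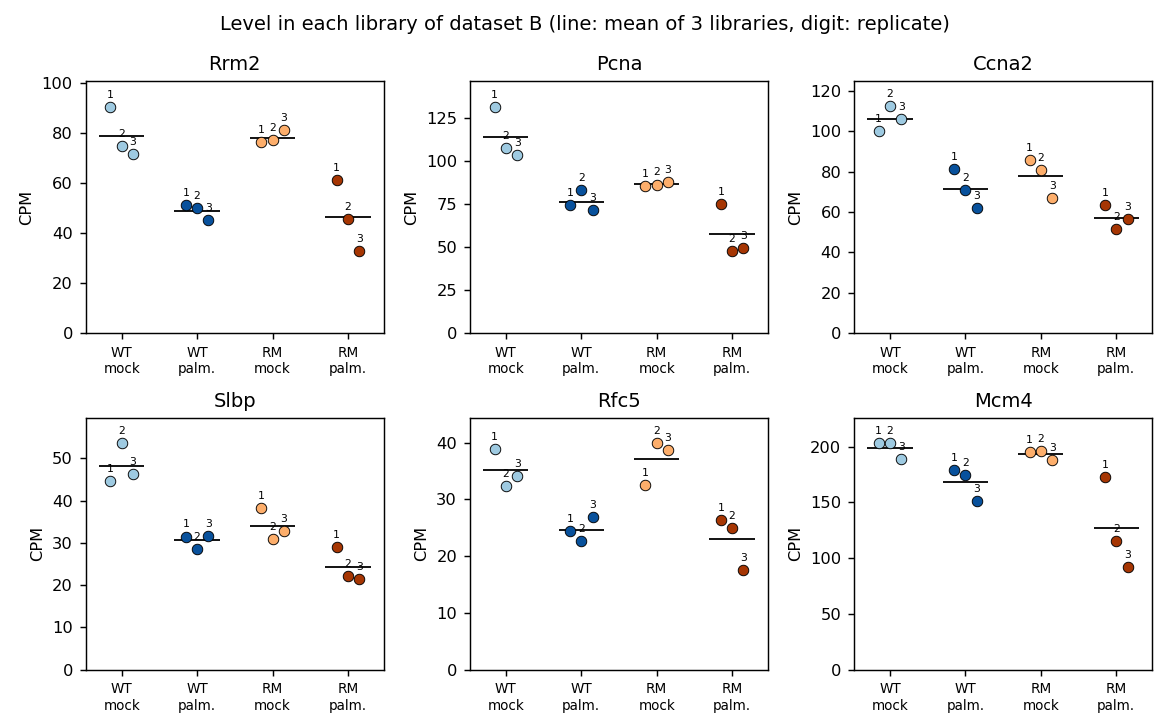
Level in CPM (vertical axis from 0) of Rrm2, Pcna, Ccna2, Slbp, Rfc5 and Mcm4 in each library of dataset B, by group along the horizontal axis, with lines at the mean of 3 libraries and digits for the replicate. With WT PKR the palmitate libraries lie below all mock libraries for all 6 mRNAs, and with RM PKR replicate 1 of palmitate lies above replicates 2 and 3 for all 6.

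With RM PKR in dataset B, palmitate lowered 8 of the 43 and raised none, where 2.45% of all features fell and 5.08% rose. They were Mcm4, Mcm6, Cdt1, Pola2, Rfc1, Rfc5, Pcna and Rrm2. The calls of Pola2, Rfc1 and Rfc5 passed in 7 of 13 alternative settings and the others in 6. All 8 were lost with only the 2 groups compared in the fit. The log2 fold change was below 0 for 40 of the 43, with a median of -0.42 against -0.01 over all features, and the libraries of 24 of the 43 were lower with palmitate without overlap, where 14.7% of all features were. Of the 11 members called with WT PKR and the 8 called with RM PKR, 3 were shared (27.3% and 37.5%), namely Pcna, Rfc5 and Rrm2.

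These losses moved with the libraries. The members summed to 2871, 2790 and 2848 CPM in the 3 RM mock libraries and to 2558, 1992 and 1710 in RM palmitate replicates 1, 2 and 3, whose share of mitochondrial RNA was 4.44%, 7.69% and 10.96%. Replicates 2 and 3 were thus lowest in the members and highest in mitochondrial RNA, and its part in the result was not tested. With both left out, only replicate 1 of RM palmitate remained in that group, and the members' median was -0.20. Without replicate 2 or replicate 3 alone, or without replicate 2 of RM mock, none of the 43 was called. Leaving out replicate 1 or 3 of RM mock left 1 and 2 calls, and leaving out replicate 1 of RM palmitate gave 21, all lower, where 1233 of 12746 features were lower. Scaling by total counts gave 27 calls, all lower, but also moved the median of all features to -0.38 and that of the members to -0.78. The number called thus depends on the scaling, and the calls over all features went from 633 higher and 306 lower to 433 higher and 1998 lower. The median of the members lay below that of all features under both scalings.

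**Figure D3:**
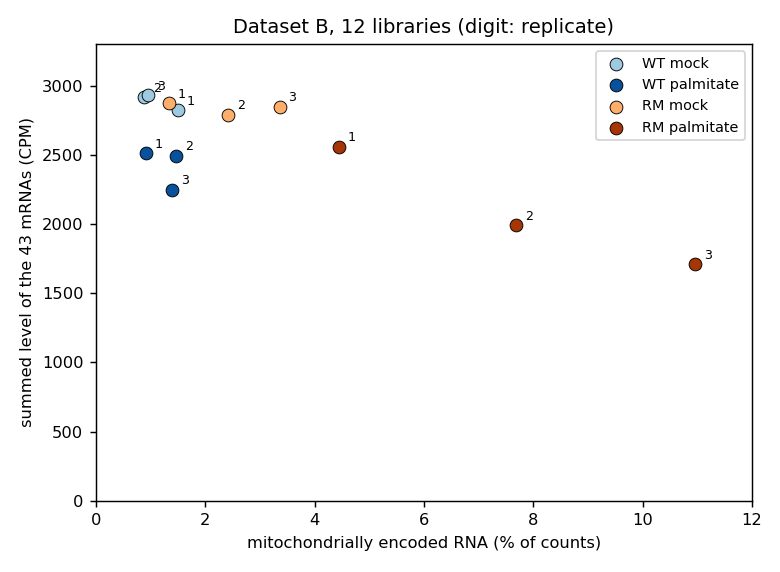
Summed level of the 43 mRNAs in CPM (vertical axis) against the percentage of counts from mitochondrially encoded RNA (horizontal axis) in the 12 libraries of dataset B, colored by group, with digits for the replicate. RM palmitate replicates 2 and 3 lie at the lower right with 1992 and 1710 CPM, and the 3 WT palmitate libraries lie between 2249 and 2512 CPM at a mitochondrial share of at most 1.46%.

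Among the single members with RM PKR, Rrm2 had 76.3, 77.2 and 81.1 CPM in mock and 61.1, 45.5 and 32.6 with palmitate, and fell 1.66-fold (log2 -0.73, SE 0.168, adjusted p = 0.0199). Pcna had 85.6, 86.2 and 87.7 CPM against 75.1, 47.7 and 49.5, and fell 1.49-fold (log2 -0.57, SE 0.155, adjusted p = 0.0378). Both had mock libraries close together and palmitate libraries far apart. Rfc5 went from 32.6, 40.0 and 38.6 CPM to 26.4, 24.9 and 17.5 (log2 -0.67, SE 0.157, adjusted p = 0.0217), and Rfc1 from 118, 125 and 121 to 97.8, 77.6 and 78.1 (log2 -0.51, SE 0.118, adjusted p = 0.0193).

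The helicase, with no member called with WT PKR, had 2 called with RM PKR. Mcm4 had 195, 196 and 188 CPM in RM mock and 173, 115 and 92.1 with palmitate (log2 -0.60, SE 0.167, adjusted p = 0.0411), and Mcm6 160.2, 148 and 157 against 127, 114 and 75.8 (log2 -0.55, SE 0.150, adjusted p = 0.0383). Mcm2 had 97.0, 82.9 and 86.4 CPM against 78.0, 58.8 and 46.6, at -0.52 with an adjusted p of 0.0590. With WT PKR the same mRNA had 72.7, 86.9 and 93.3 CPM in mock and 88.6, 99.0 and 77.0 with palmitate, and its groups overlap. Pola2, the regulatory subunit of polymerase alpha, had 63.8, 65.6 and 62.7 CPM in RM mock and 50.2, 40.5 and 31.5 with palmitate (log2 -0.63, SE 0.143, adjusted p = 0.0186), and the licensing factor Cdt1 fell by 0.66 (SE 0.170, adjusted p = 0.0305). Mcm4 and Mcm6 lay apart from mock without overlap, as did Mcm2, Pola2 and both Rfc1 and Rfc5.

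Of the mRNAs called with WT PKR and not with RM PKR, several had lower values with palmitate there too. Slbp had 38.3, 30.8 and 32.7 CPM in RM mock and 29.0, 22.2 and 21.6 with palmitate, Ccna2 86.0, 80.9 and 67.0 against 63.7, 51.6 and 56.5, and Ccne2 6.19, 8.87 and 5.88 against 4.88, 3.88 and 4.08. In all 3 the palmitate libraries lay below the mock libraries. Rfc4 had 9.66, 6.68 and 6.91 CPM in RM mock and 6.88, 6.65 and 5.83 with palmitate, and Ccne1 14.4, 17.6 and 16.9 against 14.6, 17.7 and 11.1, both with overlap. Slbp, Ccna2, Ccne2 and Tyms were at -0.46, -0.44, -0.69 and -0.45 in log2 fold change with RM PKR and missed the threshold at adjusted p of 0.0630, 0.0542, 0.135 and 0.0671.

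The test of the difference itself, the interaction of genotype and palmitate, called none of the 43 in dataset B and 0.0% of all features with edgeR. Unadjusted p was under 0.05 for 2 of the 43, Mcm2 at 0.59 (SE 0.226, adjusted p = 0.214) and Gins2 at -0.68 (SE 0.320, adjusted p = 0.303), and DESeq2 called none of the 43 but 400 of 19616 features. At the position of Gins2, 69.2% of the counts in dataset C (202 of 292) were antisense to it, so its counts in A and B are not certain to be its own. Without RM palmitate replicate 1 the interaction called 4 members and 903 of 12746 features. The response to palmitate was therefore not shown to differ between WT and RM PKR for any of these mRNAs.

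The other lists of the cell cycle give the setting in dataset B. With WT PKR, 14 of 62 further replication and S-phase genes fell and none rose (median -0.35), among them Dtl at -0.80 (SE 0.136), Pclaf at -0.62 (SE 0.127) and the Cdt1 inhibitor Gmnn at -0.76 (SE 0.158). Of 38 genes of G2 and mitosis 15 fell and none rose (median -0.41), among them Hmmr at -0.83 and Nusap1 at -0.86. Of all features, 6.12% fell and 9.43% rose with WT PKR. With scaling by total counts, 6 of the 62 and 4 of the 38 were called, all lower. Of 19 tested genes of G1, the CDK inhibitor Cdkn1a rose by 0.81 (SE 0.163), Cdk6 rose by 0.50 (SE 0.141) and the CDK inhibitor Cdkn1b fell by 0.84 (SE 0.154). With RM PKR, 8 of 62 further S-phase genes and 4 of 38 genes of G2 and mitosis fell and none rose, where 2.45% of all features fell. Of the G1 genes Cdkn1a rose by 1.27 (SE 0.175), and Cdkn1b and Rbl2, a relative of the retinoblastoma protein, fell by 0.68 (adjusted p = 0.0277) and 0.59 (adjusted p = 0.0413). Without RM palmitate replicate 2 or replicate 3, none of the genes of these 3 lists passed the test as lower. With both left out, only replicate 1 remained in that group, and the median of the G2 and mitosis genes was 0.01. Scaling by total counts gave 29 of the 62 further S-phase genes and 14 of the 38 of G2 and mitosis as lower with RM PKR. Without RM palmitate replicate 1 the counts were 21 of 62 and 21 of 38. More of all features were lower in both settings too, as given above. The replication-dependent histone mRNAs, which Slbp binds, are not polyadenylated and are not among the 43. With WT PKR 27 of 63 fell and none rose (median -0.79), and 34 fell with scaling by total counts. With RM PKR 2 of 63 rose and none fell (median 0.55, 60 of 63 above 0), where 5.08% of all features rose. With scaling by total counts none was called with RM PKR, the median was 0.13 and 40 of 63 were above 0. Without RM palmitate replicate 1 their median was 0.77, and without replicate 2 or replicate 3 alone none was called. Without both RM palmitate replicates 2 and 3, and so with only replicate 1 in that group, the median of the histone mRNAs was -0.07. Of 11 tested fibroblast markers, Col1a1 rose by 0.67 and Pdgfra and Dcn fell by 0.53 and 0.79 with WT PKR, and Pdgfra and Pdgfrb fell by 0.78 and 0.41 with RM PKR; their part in the result was not tested. Most of the 43 mRNAs thus lay below 0 with both forms of PKR, and the histone mRNAs below 0 with WT. With RM the histone mRNAs lay mostly above 0 with all libraries in the fit, but 29 of 64 did without both of those that stood apart.

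In dataset A none of these mRNAs passed the test for palmitate. With WT PKR none of the 39 that passed the filter on low counts was called, where 0.335% of all features were, the median log2 fold change was -0.03, and 1 of the 39 had an unadjusted p under 0.05. That was Pold1, the catalytic subunit of polymerase delta, at -0.71 (SE 0.260, adjusted p = 0.273), with 8.01, 7.40 and 7.16 CPM in mock and 4.09, 5.01 and 4.80 with palmitate. Rpa1 was next below 0 at -0.53 (adjusted p = 0.510), and Fen1 and the primase subunit Prim2 had the smallest p above 0, at 0.66 and 0.29. With RM PKR none was called, where 0.477% of all features were, none had an unadjusted p under 0.05, and the median was 0.05. The smallest p belonged to Cdc6 at -0.95 (adjusted p = 0.382) and Mcm10 at -0.50 below 0, and to Dut at 0.60 (adjusted p = 0.432) and Chaf1b at 0.69 above 0. DESeq2 called none in either comparison. Rfc4, Gins1, Gins3 and Ung did not pass the filter in A. The interaction called none, against 0.0% of all features, and none of the 39 had an unadjusted p under 0.05.

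The mRNAs that fell in dataset B were at low levels in A and their intervals were wide. Rrm2 had 9.94, 4.396 and 4.36 CPM in WT mock and 3.77, 7.18 and 8.23 with palmitate in A, groups that overlap, with a 95% interval of the log2 fold change of -0.75 to 0.70 that holds the value of dataset B. Pcna had 15.5, 14.1 and 10.9 CPM against 10.1, 18.1 and 16.8, with an interval of -0.36 to 0.60. This interval does not reach the -0.58 of dataset B, a value with an error of its own. In the test of the difference between the datasets, averaged over WT and RM, Pcna was not called. Ccna2 had 11.9, 8.10 and 7.16 CPM against 8.35, 9.58 and 7.55, with an interval of -0.58 to 0.42. Slbp had 8.01, 7.87 and 5.91 CPM against 8.35, 8.71 and 8.92, higher with palmitate without overlap but not called (log2 0.24, adjusted p = 0.751). Mcm2 had 13.3, 10.4 and 12.1 CPM against 9.004, 13.1 and 14.7, and in RM palmitate of A 11.5, 0 and 9.52, the 0 in the shallow library.

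With RM PKR in A most of these groups overlapped as well. Rrm2 had 8.05, 7.53 and 6.23 CPM in mock and 8.55, 6.90 and 5.66 with palmitate, Pcna 15.2, 14.5 and 12.6 against 16.0, 13.8 and 13.3, and Ccna2 10.3, 8.11 and 10.7 against 9.11, 6.90 and 9.94, all with overlap. Slbp had 6.38, 4.34 and 5.19 CPM in RM mock and 4.76, 10.3 and 4.97 with palmitate, the high value in the shallow library. Ccne2 was near the limit of detection, with 2.49, 3.01 and 2.18 CPM in WT mock, 0.982, 1.96 and 1.72 in WT palmitate, 1.37, 0.724 and 0.890 in RM mock and 2.10, 0 and 0.828 in RM palmitate. Its WT groups do not overlap, but it was not called (log2 -0.79, adjusted p = 0.527). Ccne1 was as low, between 1.24 and 3.92 CPM in the libraries other than the shallow one, where it had no count. For the clamp loader, Rfc1 had 27.6, 33.8 and 24.6 CPM in WT mock against 23.1, 25.9 and 29.5 with palmitate, and 21.3, 26.5 and 26.2 in RM mock against 24.4, 20.7 and 22.2. Rfc5 had 8.56, 7.40 and 5.91 CPM against 5.40, 6.53 and 10.98 with WT, and 6.68, 6.37 and 5.34 against 8.13, 3.45 and 7.18 with RM. Both overlap in each comparison. Rfc4, not tested in A, had at most 3.77 CPM. Pola2 had 11.05, 12.03 and 12.1 CPM against 10.97, 12.6 and 14.4 with WT, and 13.5, 13.3 and 10.7 against 17.9, 3.45 and 11.3 with RM, again with overlap.

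The difference between the datasets was tested in a fit of all 24 libraries. The palmitate effect, averaged over WT and RM, was lower in B than in A for 1 of the 43 mRNAs, Tyms, at -0.80 (SE 0.211, adjusted p = 0.0370), where 0.978% of all features were lower in B and 2.72% differed. That call passed in 11 of 30 alternative settings and was lost without any 1 library of dataset B other than WT mock replicate 3 and RM palmitate replicate 1, and without WT mock replicate 3, WT palmitate replicate 2 or 3, any RM mock replicate or RM palmitate replicate 3 of A, at log2 values of -0.98 to -0.68 over all alternatives. The members' median of this difference was -0.32, with 37 of 43 below 0. Averaged over genotypes and datasets, palmitate lowered 7 of the 43 and raised none, where 9.41% of all features fell and 10.9% rose: Cdc6 by 0.55 (SE 0.161), Mcm10, which helps to start the helicase, by 0.43 (SE 0.121), Cdt1 by 0.37, Pold1 by 0.37, Mcm6 by 0.33, Ccna2 by 0.27 and Rfc1 by 0.26. The 7 are 16.3% of the 43. Without both RM palmitate replicates 2 and 3 of dataset B that group keeps only replicate 1, and the number called there is not given. Leaving out replicate 1 of WT mock of A gave 4 calls, replicate 3 of WT palmitate of A 11 and replicate 1 of RM palmitate of B 14. The calls over all features in those fits are not given here.

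Between the forms of PKR, Rpa1 was the member called in both treatments of dataset A. Rpa1, the large subunit of RPA (chromosome 11, positions 75111668 to 75161826 on mm9, minus strand), had 245, 159 and 149.6 CPM in WT mock of A and 26.0, 22.0 and 21.9 in RM mock. With palmitate it had 69.6, 136 and 178 CPM with WT PKR and 19.9, 31.0 and 22.2 with RM PKR. All 6 WT libraries lay above all 6 RM libraries. Rpa1 was 7.92-fold higher with WT in mock (log2 2.99, SE 0.324, adjusted p = 7.72e-06) and 5.68-fold higher in palmitate (log2 2.51, SE 0.344, adjusted p = 0.000219), and both calls passed in 12 of 12 alternative settings.

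Its partner Rpa3, the small subunit of RPA, lay on the other side in dataset A. It had 3.31, 1.85 and 1.87 CPM in WT mock against 6.23, 5.50 and 5.63 in RM mock, and 1.96, 2.39 and 1.72 in WT palmitate against 6.87, 121 and 3.73 in RM palmitate, lower with WT without overlap in both treatments. The log2 fold change was -1.30 in mock (SE 1.23, adjusted p = 0.626) and -2.50 in palmitate (SE 1.27, adjusted p = 0.349), neither of them called, with the 121 CPM of the shallow library in the fit. DESeq2 gave -1.31 in mock (adjusted p = 0.663) and -4.34 in palmitate (adjusted p = 0.00268). Without the shallow library it was -1.36 in palmitate (SE 0.344, adjusted p = 0.0264), and with only the 2 mock groups in the fit it was -1.32 in mock (adjusted p = 0.00633). In dataset B Rpa3 was at 0.27 in mock and 0.21 in palmitate, not called, and the difference between the datasets of 2.19 was not called either (adjusted p = 0.140). Thymidine kinase Tk1 was also lower with WT without overlap in palmitate of A, on 1 to 15 counts per library, at -0.67 (adjusted p = 0.530).

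In dataset B the 12 libraries of Rpa1 ran from 95.6 to 192 CPM and the forms of PKR overlapped. WT mock had 163, 175 and 185 CPM against 190.2, 179 and 192 in RM mock (log2 -0.10, SE 0.154, 95% interval -0.43 to 0.22), and WT palmitate 157, 168 and 137 against 167, 132 and 95.6 (log2 0.22, SE 0.157, 95% interval -0.11 to 0.55). The WT against RM effect, averaged over treatments, was lower in B than in A by 2.68 on the log2 scale (SE 0.247, adjusted p = 1.10e-07), and 30 of 30 alternatives called it. Rpa1 is the member whose genotype effect depends most on the dataset.

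The share of Rpa1 among the counts of the 43 mRNAs shows the same for A and B without any scaling between libraries. In A it was 31.9% ± 3.88 (SD, n = 3) in WT mock and 24.2% ± 4.93 in WT palmitate, and 6.63% ± 0.297 and 7.21% ± 2.34 in RM mock and RM palmitate. In B the 4 groups had means of 6.03% to 6.59%. Dataset C, with 1 library per group, had 39.1% in WT mock (exact 95% binomial interval 36.9% to 41.5%) and 26.9% in WT palmitate (24.5% to 29.3%), but 5.70% (5.23% to 6.2%) in RM mock and 6.10% (5.6% to 6.62%) in RM palmitate; these intervals cover counting error only. Datasets A and C thus had a high share in their WT libraries, and the RM libraries of A, B and C and the WT libraries of B had a like low share. In C the share also moved with the other members, which took 0.0144% of all counts in WT mock and 0.0842% in RM mock. They took 0.0129% and 0.0708% with palmitate. Rpa1 itself had 92.3 CPM in WT mock of C and 50.9 in RM mock, without TMM scaling, and 47.3 and 46.0 with palmitate. No other feature of the tables overlaps Rpa1, and all 2106 of its counts in dataset C lay on its own strand.

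**Figure D4:**
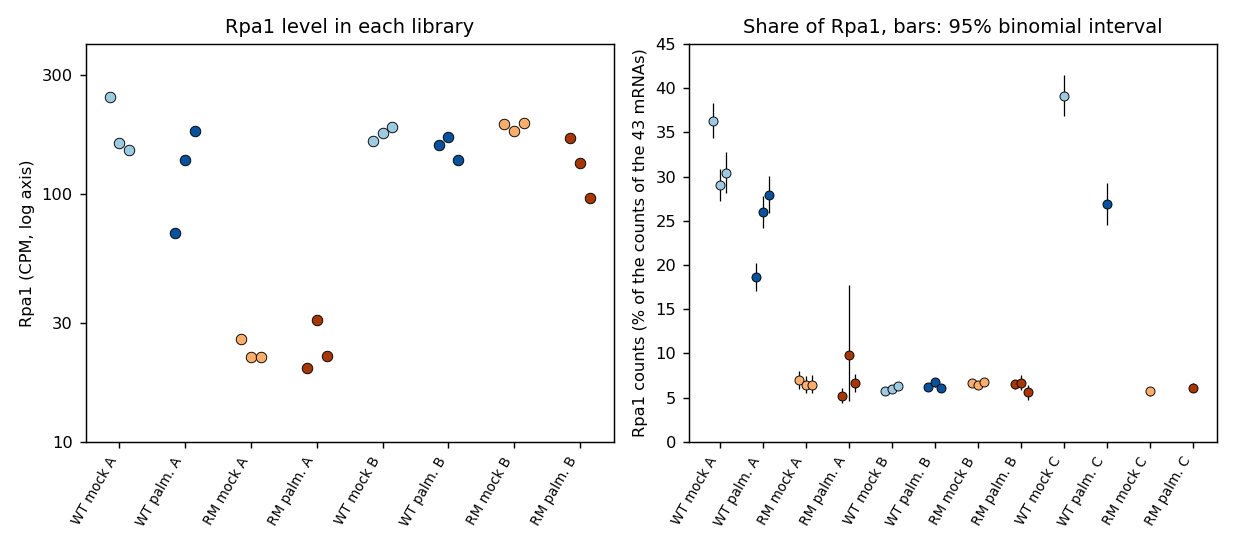
Left, Rpa1 in CPM (log axis) in each library of datasets A and B, by group; right, Rpa1 as a percentage of the counts of the 43 mRNAs in each library of A, B and C, with exact 95% binomial intervals. The 6 WT libraries of A and the 2 WT libraries of C lie between 18.6% and 39.1%, and all other libraries lie at 9.78% or below.

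The features whose pattern over the 24 libraries of A and B was most like that of Rpa1, a list made after its values were seen, were Eapp (Pearson r = 0.970), Wdr76 (0.968), Optn (0.963), Il17rd (0.957) and Gnl3l (0.952), out of 11371 features that averaged 10 or more counts. The points share their libraries and the gap between WT and RM in A. Eapp, for example, had 101, 99.3 and 61.6 CPM in WT mock of A and 4.56, 2.32 and 4.74 in RM mock, and 5.83 to 11.98 CPM in the libraries of B. For the mean of the members in place of Rpa1, the most like were Fam111a (0.958), Kif20a (0.947), Ide (0.946), 1110012L19Rik (0.942) and Zyg11b (0.941), out of 11330 features. These correlations are of log2 CPM centred within each dataset, and their points share the libraries and their depths, the shallow RM palmitate replicate 2 of A among them. Among the members themselves, Rpa3 (-0.69), Gins2 (-0.42, with the doubt about its counts given above) and Tk1 (-0.24) were least like the mean of the others. The value of Rpa3 includes its single high level in that shallow library, given above.

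Beside Rpa1, 1 further member was called between WT and RM in mock of dataset A. Tyms had 9.66, 10.2 and 6.22 CPM in WT mock and 4.56, 4.63 and 3.71 in RM mock, without overlap, and was 2.04-fold higher with WT (log2 1.03, SE 0.280, adjusted p = 0.0443). The call passed in 5 of 12 alternative settings and was lost without any of replicates 1 and 2 of WT mock or the 3 replicates of RM mock, at log2 fold changes of 0.87 to 1.19. In all, 2 of the 39 tested were higher and none lower, where 3.03% of all features were higher and 0.715% lower, and 11 of the 39 were higher without overlap, where 17.5% of all features were. In palmitate of A, Rpa1 was the 1 member called, where 2.49% of all features were higher. Tyms had 7.53, 10.9 and 14.1 CPM with WT and 4.62, 6.90 and 6.76 with RM (log2 0.86, SE 0.285, adjusted p = 0.105). The number called was 3 without WT palmitate replicate 1 and 2 without RM palmitate replicate 2, Rpa1 and, lower, Rpa3.

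In mock of dataset B, 4 of the 43 were higher with WT PKR and 1 was lower, where 6.24% of all features were higher and 7.88% lower. These were Ccne2 (log2 0.75, SE 0.216, adjusted p = 0.0291), Rfc4 (0.61, SE 0.193, adjusted p = 0.0433), Slbp (0.50, SE 0.134, adjusted p = 0.0200), Ccna2 (0.44, SE 0.128, adjusted p = 0.0291) and, lower, the CAF-1 subunit Chaf1a (-0.42, SE 0.127, adjusted p = 0.0348), with 45.04, 44.9 and 55.2 CPM in WT mock and 68.9, 60.2 and 65.5 in RM mock. For the 4 higher ones all RM mock libraries lay below all WT mock libraries, with the values given above. The same 4 fell with palmitate with WT PKR, and both comparisons use the WT mock libraries. No member was called without replicate 2 of WT mock or replicate 3 of RM mock, 1 was called without replicate 2 of RM mock, and 3 without replicate 3 of WT mock or replicate 1 of RM mock.

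In palmitate of dataset B, 1 of the 43, Pola2, was higher with WT, where 3.62% of all features were. Its levels were 66.2, 54.7 and 61.3 CPM with WT and 50.2, 40.5 and 31.5 with RM, without overlap (log2 0.56, SE 0.143, adjusted p = 0.0290). No member was called without any 1 of the 3 WT palmitate replicates or of RM palmitate replicates 2 and 3. Without RM palmitate replicate 1, 13 were called, all higher, where 1197 of 12746 features were higher. The members' median was 0.18 with all libraries. It was -0.03 without both RM palmitate replicates 2 and 3, which leaves only replicate 1 in that group.

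**Figure D5:**
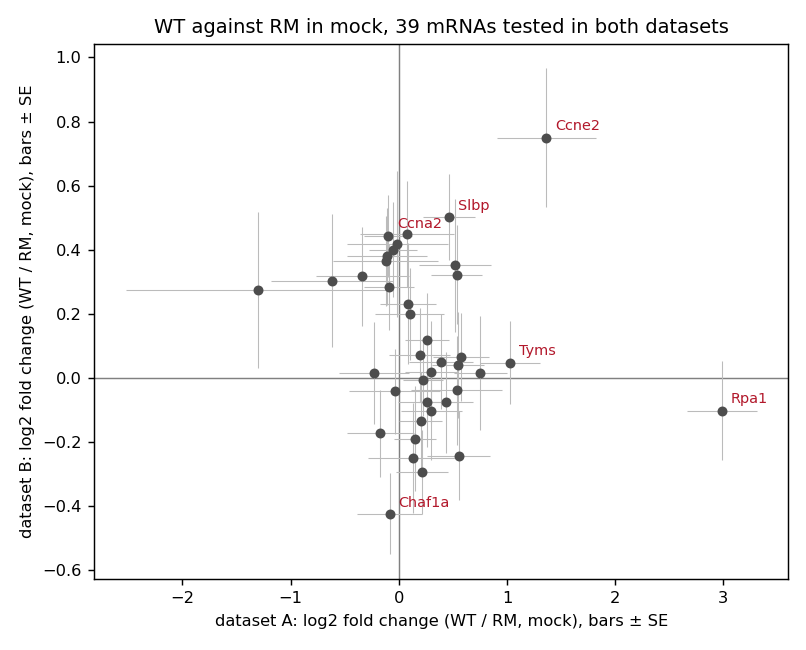
Log2 fold change of WT over RM in mock cells in dataset A (horizontal axis) and dataset B (vertical axis) for the 39 mRNAs tested in both, bars ± SE, with names for those called in either. Rpa1 lies far right at 2.99 and near 0 on the vertical axis, Tyms at 1.03 and 0.05, and Chaf1a lowest at -0.42 in B.

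Averaged over treatments and datasets, 9 of the 43 were higher with WT and none lower, where 12.4% of all features were higher and 13.1% lower. Rpa1 led (log2 1.40, SE 0.124, adjusted p = 1.02e-08), which combines its effect in A with values near 0 in B. Slbp was higher by 0.51 (SE 0.0944, adjusted p = 0.000321), Tyms by 0.49 (SE 0.106, adjusted p = 0.00128), and the helicase subunits Mcm5, Mcm4 and Mcm3 by 0.41, 0.41 and 0.30. Ccne2, Rfc3 and Pold1 were higher by 0.62, 0.45 and 0.34. The calls of Rpa1, Slbp and Tyms passed in 30 of 30 alternative settings, those of Mcm5, Mcm4, Ccne2 and Rfc3 in 29, 28, 28 and 26, and those of Pold1 and Mcm3 in 18 and 15. The fit without both RM palmitate replicates 2 and 3 of dataset B keeps only 1 library in that group, and the number called there is not given. The genotype effect was lower in B than in A for Rpa1 and for Tyms (-0.88, SE 0.212, adjusted p = 0.00882), where 5.35% of all features were lower in B, and higher for none, where 2.53% were higher. With scaling by total counts 7 members were higher in B and 1, Rpa1, was lower, and all features went from 321 higher and 679 lower to 2258 higher and 383 lower. In dataset B, Tyms had 27.4, 27.3 and 29.7 CPM in RM mock and 22.4, 19.4 and 19.2 in RM palmitate, close to the WT values given above (95% intervals of WT over RM -0.23 to 0.32 in mock and -0.27 to 0.36 in palmitate).

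Dataset C has no replicates and was only described, as log2 ratios of CPM with a prior count of 1 for the 42 members with a mean of at least 10 counts. With palmitate 26 of the 42 were below 0 with WT (median -0.25, all features 0.27) and 37 of the 42 with RM (median -0.32, all features 0.18). Between WT and RM the whole table was shifted, with a median of -2.37 over all features in mock and -2.28 in palmitate, and the members followed it with medians of -2.49 and -2.22. Rpa1 was above 0 in both, at 0.86 and 0.04, and the other 41 members were below. Rrm2 had 23 and 30 counts in the WT libraries of C and 227 and 210 in the RM libraries.

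The authors' deposited tables hold their own palmitate comparisons. By the authors' deposited table, 7 of the 43 were past their score of 13.01, read here as a false discovery rate of 0.05, with WT PKR in dataset B, all lower: Ccna2, Ccne2, Pcna, Rfc4, Rpa3, Rrm2 and Slbp, where 6.51% of all features were past it, 1206 higher and 761 lower. In the authors' deposited tables none was past it with WT in A, with RM in A or with RM in B, where 0.599%, 0.255% and 1.92% of all features were. Of the features past it with RM in B in the authors' deposited table, 575 were higher and 5 lower.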

How the data were processed

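RNA precipitated with PKR was sequenced in 28 libraries. The submitters' processing notes name CASAVA 1.7.0 and 1.8.2, Novoalign and the build mm9. What counted the reads, and for A and B whether strand was used, is not given in the sources used. The tables deposited by the authors give whole-number counts for 30210 features per library (dataset C per strand, summed here), and the authors' log2 ratios with a false discovery score, read as 10 times the negative log10, so that 13.01 stands for 0.05. Those 2 columns were used only where named. Of the columns with values for single samples, 32 with counts were used and 52 were left aside.

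Counts were fitted with edgeR 4.0.16 (limma 3.58.1, R 4.3.3): quasi-likelihood, robust, TMM, filterByExpr, two-sided, Benjamini-Hochberg over all features tested, threshold 0.05, with 1 mean per group. Fits held 12 libraries of A (11328 features), 12 of B (12466) and all 24 with 8 group means (12683). Every adjusted p is from this test. SE is the log2 fold change over the root of F. The script was tested on simulated counts. DESeq2 1.42.0 and the settings in the closing section were alternatives.

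Members were matched by symbol, and no member had a near-identical partner in counts among the 31 checked. The members, the lists (further S-phase, G2 and mitosis, G1 and histone genes, and markers of 4 cell classes: fibroblast, macrophage with lymphocyte, epithelial, endothelial), the tests and the naming rule were chosen with earlier results of these data known. The rule names every member called in a comparison, or the 12 smallest p, or where none passed those with the smallest p. Values per library are given for the 10 members called in most comparisons and for Pcna, Mcm2, Rrm2, Ccne1 and Ccna2, and of the other lists for up to 3 called members. Mcm4, Mcm6, Rpa3, Pold1 and Chaf1a were added after their values were seen, as was Tk1 between WT and RM. Promoter sequences are from RefSeq on GRCm38.p6, matched by symbol. Figures were drawn in Python 3.11.15.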

Additional observations from a re-analysis of the deposited data

Results flagged for a closer look

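For 3 results an effect differed between datasets A and B by a test of the difference in the fit of all 24 libraries (edgeR's quasi-likelihood test). The WT against RM effect on Rpa1 differed by -2.68 on the log2 scale, B minus A (adjusted p = 1.10e-07), a difference called in 30 of 30 alternatives. The WT against RM effect on Tyms differed by -0.88 (adjusted p = 0.00882), called in 29 of 30 alternatives and lost with scaling by total counts at -0.43. The palmitate effect on Tyms differed by -0.80 (adjusted p = 0.0370), called in 11 of 30 alternatives with values of -0.98 to -0.68. The datasets also differ in total depth of these mRNAs and in the 2hr mark of dataset B, and dataset and these features cannot be told apart.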

How the results depend on the processing

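The limits are 3 libraries per group, few counts of these mRNAs in dataset A, where 4 of the 43 were not tested, and the 2 RM palmitate libraries of B that stand apart; where a count of calls moved, the cause was not tested. Calls of members kept their direction in all alternatives run. With edgeR on DESeq2 size factors the counts of called members moved in 0 of 14 comparisons, with DESeq2 in 4, without the filter in 6 and with total-count scaling in 10 (beyond 1.5 times).

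With DESeq2, 1 member was called between WT and RM in mock of A, 2 in palmitate of A, 3 in mock of B and 3 for the palmitate effect of B minus A. With total-count scaling the numbers were 1 (WT against RM, mock of A), 2 (palmitate of A), 1 (mock of B), 9 (palmitate of B), 5 (palmitate with WT, B), 27 (palmitate with RM, B), 11 (palmitate averaged), 4 (WT against RM averaged), 0 (palmitate, B minus A) and 8 (WT against RM, B minus A, 7 of them higher). That scaling moved the median of all features by over 0.1 in 10 comparisons, most for WT against RM of B minus A, to 0.48, and in palmitate of A, to -0.39. Calls over all features went from 282 higher and 106 lower to 134 and 387 for WT against RM in palmitate of A, from 451 and 523 to 1735 and 374 in palmitate of B, from 1380 and 1193 to 708 and 1620 for palmitate averaged, from 1574 and 1664 to 708 and 1352 for WT against RM averaged, from 36 and 18 to 12 and 0 for palmitate with RM in A, from 221 and 124 to 99 and 21 for palmitate of B minus A and from 321 and 679 to 2258 and 383 for WT against RM of B minus A. Without the filter, 1 member was called for palmitate with RM in A, 13 in B, 2 between WT and RM in palmitate of A, 2 in palmitate of B, 4 for palmitate of B minus A and 4 for WT against RM of B minus A. With only the 2 groups compared in the fit, 6 were called between WT and RM in mock of A, 0 in palmitate of B and 0 for palmitate with RM in B. Without both RM palmitate replicates 2 and 3 of B only 1 library is left in that group, so the numbers called in those fits are not given.

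Leaving out 1 library at a time gave 1 to 2 members between WT and RM in mock of A, 1 to 3 in palmitate of A, 0 to 4 in mock of B and 0 to 13 in palmitate of B. It gave 2 to 10 for palmitate with WT in B, 0 to 21 with RM, 0 to 4 for the interaction in B, 4 to 14 for palmitate averaged, 7 to 13 for WT against RM averaged, 0 to 6 for palmitate of B minus A and 2 to 6 for WT against RM of B minus A. In this section calls over all features are given only for scaling by total counts. The other counts of members therefore do not show a change particular to them.

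Replicate numbers did not pair the libraries: same-numbered libraries had a median correlation of deviations of 0.00499 in A and 0.0134 in B, and 5 of 12 correlated best with their own number in each. With the replicate number as a block, 2 members were called for palmitate of B minus A, and the counts of the other 13 comparisons stayed within 1.5 times.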
